A study of Mus musculus with 6 samples.

Results

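The ATP-binding cassette (ABC) transporter genes are a family of 50 genes among the 23282 gene entries counted in the mouse forebrain. They were chosen by a naming rule, as every entry whose symbol is Abc followed by 1 letter from a to g and a digit. The rule uses no measured value, but it was set with earlier results of these data known. Libraries of 2 groups were compared, with 3 libraries of male C57BL/6J mice on a normal chow diet (NCD) and 3 on a high-fat diet (HFD) in which fat supplied 60 kcal%. All were labelled wild type (WT), were 8 to 10 weeks old per the study's methods, and stayed on the diet for 10 days. The RNA came from a forebrain hemisphere after the olfactory bulbs and cerebellum had been removed. The labels do not say whether the replicates were separate animals, so the p-values below measure the spread between these libraries, which may be in part technical.

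ABC proteins bind and hydrolyze ATP in a pair of cassettes, and most of them use that energy to move lipids, peptides, heme precursors, drugs or conjugated metabolites across a membrane. In the brain they are best known for exporting cholesterol from astrocytes to apolipoprotein E, for pumping drugs back into the blood at the blood-brain barrier, and for bringing very long-chain fatty acids into peroxisomes. Subfamilies E and F have no membrane part and work on the ribosome. The question addressed here was whether a short period of fat-rich feeding went with a shift in the transcripts of these genes.

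Each cassette holds a signature, the short stretch leucine-serine-glycine-glycine-glutamine that contacts the ATP on the partner cassette. The coding sequences below, from the mouse transcripts of GENCODE vM21 on GRCm38, are shown because they carry the family's defining element and because they show how close its nearest copies are. The 15 bases of the signature are in capitals.

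Abcc1, codons 768 to 772: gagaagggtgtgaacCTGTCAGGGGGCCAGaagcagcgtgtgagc
Abcb1a, codons 527 to 531: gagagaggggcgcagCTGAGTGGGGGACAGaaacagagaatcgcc
Abcb1b, codons 530 to 534: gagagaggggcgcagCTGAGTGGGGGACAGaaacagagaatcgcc
Abcb4, codons 530 to 534: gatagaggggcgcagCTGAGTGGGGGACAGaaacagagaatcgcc
Abcg1, codons 217 to 221: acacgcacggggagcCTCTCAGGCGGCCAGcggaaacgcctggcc
Abca8a, codons 615 to 619: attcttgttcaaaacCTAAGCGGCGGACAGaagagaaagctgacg

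The exact 5 residues were found in 25 of the 50 genes, in 28 copies written with 24 different sets of 15 bases. Abcb1a, Abcb1b and Abcb4 held 2 copies each. The 45 bases printed for Abcb1a and Abcb1b, which encode the paired rodent forms of P-glycoprotein, were the same letter for letter. Of the 75-base stretches that 1 read could cover, Abcb1a and Abcb1b shared 644, or 11.9% of those of Abcb1a and 7.99% of those of Abcb1b, and their longest shared run was 338 coding bases. None of the shared stretches lay in the last 1000 bases of a coding transcript of Abcb1a and 142 lay in the last 1000 bases of one of Abcb1b, while the libraries were made from the 3′ ends of transcripts. Because reads with several alignments were counted, the counts of Abcb1a and Abcb1b are uncertain in how they divide between copies. Smaller overlaps joined Abca3 with Abca17 (70 stretches, 36 of them in the last 1000 bases of Abca17), Abcb4 with Abcb1a (49, all in the last 1000 bases of a transcript of Abcb4), Abca8a with Abca8b (36) and Abcb4 with Abcb1b (24).

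The deposited counts per gene were scaled as CPM to the library's effective size. That size is the library's count over the genes that passed the filter for low counts, multiplied by the TMM factor that edgeR fits. The totals over all genes ran from 6842785 to 9689372. CPM is not divided by transcript length here, so values are compared between libraries for the same gene and not between genes. Counts of the family came to 7857, 8610 and 10094 in NCD replicates 1, 2 and 3 and to 6802, 8578 and 5681 in HFD replicates 1, 2 and 3. As a share of all counts the NCD libraries gave 0.0975%, 0.0959% and 0.104%, and the HFD libraries 0.0994%, 0.0941% and 0.0747%. HFD replicate 3 was the low library, and the other HFD libraries lay within or near the range of the NCD libraries.

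Of the 50 genes, 33 had enough counts to be tested, 14 had counts but fell under the filter for low counts, and Abcb5, Abca14 and Abca16 had no count in any library. At the study's thresholds, a fold of at least 1.5 with an unadjusted p under 0.05, none of the 33 was called by edgeR's quasi-likelihood test, against 1.28% of the 13771 genes tested. Only Abcc1 had an unadjusted p under 0.05, against 3.68% of all genes tested (1.98% lower and 1.71% higher under HFD). After Benjamini-Hochberg adjustment no member was called, and no gene of the 13771 was (0%). DESeq2 called 2 genes, 0.0145%, none of them in the family. At an unadjusted p under 0.05, DESeq2 had 0 members and limma after quantile normalization had 2, Abcc1 and Abca2. Adjusted p-values of the members ran from 0.979 to 0.999 by edgeR's quasi-likelihood test.

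The log2 fold changes, HFD over NCD, were smaller than 0.3 in size for 30 of the 33 genes. Abcc1, at -0.43, and Abcb6, at 0.21, stood at the ends of the tested members described here. For 16 of the 33 genes the whole 95% interval of the change lay inside 1.5-fold in either direction (48.5%, against 62.5% of all genes tested). These 16 included Abcg2, Abcb1a, Abcc5, Abcd2, Abcd3, Abce1, Abcf1, Abcg1 and Abca1, so that for them a change of that size was outside the interval. For the other 17, Abcc1 and Abca2 among them, the interval reached past 1.5-fold in at least 1 direction.

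**Figure D1:**
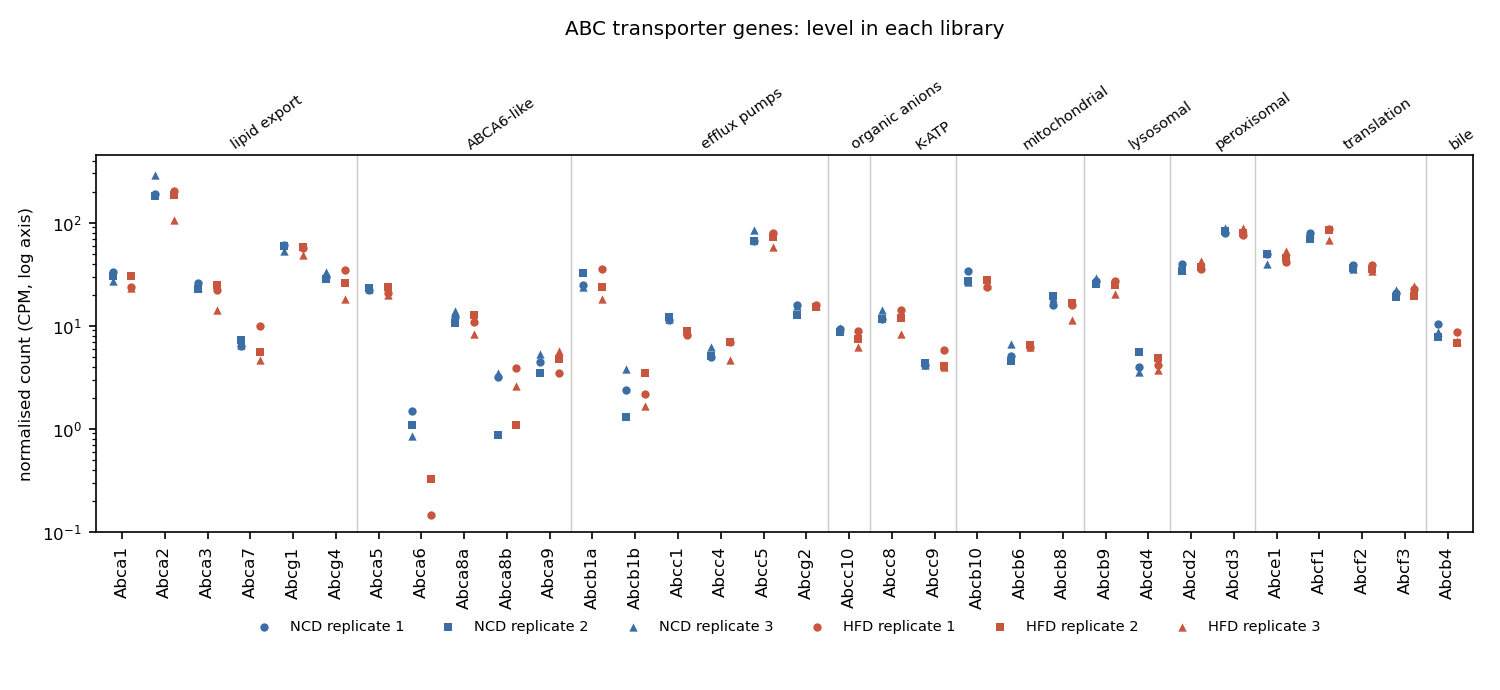
Normalised count (CPM, log axis) of 31 tested ABC transporter genes and of Abca6 in each library, grouped by role. NCD libraries are blue, HFD libraries red, with a marker for each replicate, and Abca6 in HFD replicate 3 is not drawn because its count was 0. The groups overlapped for every gene shown except Abcc1 and Abca6.

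Abcc1 encodes a pump for glutathione conjugates and leukotrienes that is found at the choroid plexus and in glia. It was counted at 11.4, 12.1 and 11.7 CPM in NCD replicates 1, 2 and 3 and at 8.06, 8.96 and 8.94 CPM in HFD replicates 1, 2 and 3. Every HFD library was below every NCD library, and Abcc1 was the 1 tested member of which this was true, against 4.49% of all genes tested. No tested member had every HFD library above every NCD library, against 4.31% of all genes. The means were 11.7 ± 0.363 CPM (SD, n = 3) and 8.65 ± 0.512 CPM (SD, n = 3). The log2 fold change was -0.43 ± 0.19 (SE), with a 95% interval from -0.83 to -0.04. By edgeR's quasi-likelihood test the unadjusted p was 0.0328 and the adjusted p (Benjamini-Hochberg) 0.979, and the exact two-sided permutation test over the libraries gave p = 0.1, the smallest it can give for 3 against 3. Without HFD replicate 3 the log2 fold change was -0.46. By DESeq2 the unadjusted p was 0.0589, and leaving out HFD replicate 1, HFD replicate 2, NCD replicate 1 or NCD replicate 2 also took it past 0.05, to 0.0885, 0.0556, 0.0514 and 0.0805. Abcc1 lies at chr16:14361558-14475737 (GRCm38, plus strand), and no other annotated gene overlaps its exons. Summed CPM of 11 choroid plexus markers overlapped between the groups, at 1064, 1193 and 1334 CPM in the NCD and 1132, 1275 and 1213 CPM in the HFD libraries. Most of each sum was Ttr, at 1008, 1118 and 1257 CPM against 1060, 1198 and 1139 CPM, while Kcnj13 and Sostdc1 of the same list were higher in every HFD library than in every NCD library.

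Abca6 is a member of the Abca5, Abca6, Abca8a, Abca8b and Abca9 cluster on chromosome 11, genes whose cargo is little known. It had 12, 10 and 8 counts in NCD replicates 1, 2 and 3 and 1, 3 and 0 counts in HFD replicates 1, 2 and 3, too few for the filter. In CPM these were 1.48, 1.08 and 0.843 against 0.144, 0.328 and 0, and a count of 3 stood for 0.316 to 0.432 CPM. All NCD libraries were above that floor and all HFD libraries were at or under it. Fitted without the filter, the log2 fold change was -2.65 ± 0.98 (SE), with an unadjusted p of 0.00741 and an adjusted p of 0.758 by edgeR's quasi-likelihood test. At that setting the study's thresholds called 2.09% of genes, 1.27% on the lower side. The size of the change moved from -3.74 to -2.13 on the log2 scale when HFD replicate 2 or HFD replicate 3 was left out. Summed CPM of 12 fibroblast markers of the meninges and vessels was 210, 234 and 225 CPM in the NCD and 229, 222 and 162 CPM in the HFD libraries, low in HFD replicate 3 as well. Its part in the Abca6 counts was not tested.

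The neighbors of Abca6 gave values that overlapped between the groups. Abca5, at chr11:110269369-110337716, had 22.1, 23.1 and 22.5 CPM in the NCD and 20.7, 23.8 and 19.7 CPM in the HFD libraries. Abca8a had 12.2, 10.6 and 13.9 CPM against 10.9, 12.8 and 8.39 CPM, and Abca9 had 4.44, 3.45 and 5.27 CPM against 3.45, 4.7 and 5.64 CPM. Abca8b stood out for its spread inside both groups, with 26, 8 and 33 counts in the NCD and 27, 10 and 19 counts in the HFD libraries. Over the 4 tested neighbors the median log2 fold change was -0.05.

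**Figure D2:**
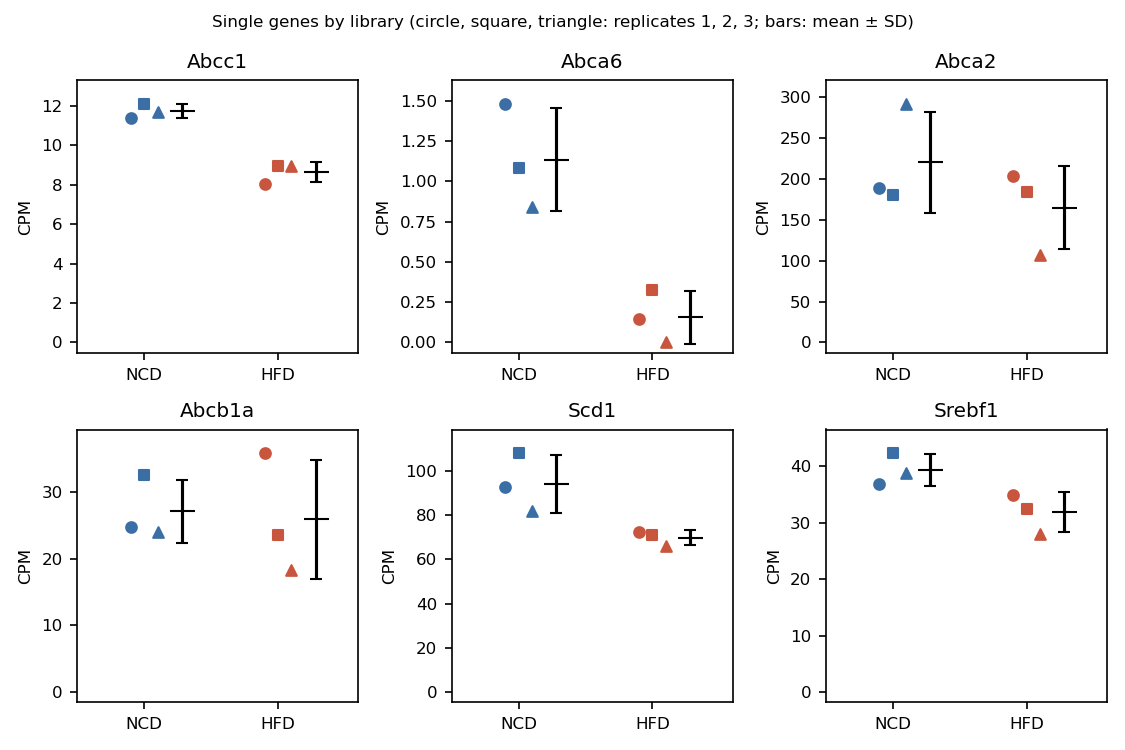
CPM by library for Abcc1, Abca6, Abca2, Abcb1a, Scd1 and Srebf1, with blue NCD and red HFD points and the mean ± SD (n = 3) beside each group. Points of the groups are apart for Abcc1 (8.06 to 8.96 CPM under HFD), Abca6, Scd1 and Srebf1 and overlap for Abca2 and Abcb1a.

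Genes of cholesterol and phospholipid handling gave log2 fold changes below 0 in 6 of 6 cases, with a median of -0.22 and none at an unadjusted p under 0.05. Abca2, which handles lipids in the late endosomes and lysosomes of oligodendrocytes and other cells, had 189, 181 and 292 CPM in the NCD and 204, 184 and 107 CPM in the HFD libraries. NCD replicate 3 was high and HFD replicate 3 low, and the other 4 libraries lay between 181 and 204 CPM. Its log2 fold change was -0.42 ± 0.20 (SE), with an unadjusted p of 0.0537 and an adjusted p of 0.979 by edgeR's quasi-likelihood test. It was -0.16 without NCD replicate 3, -0.19 without HFD replicate 3 and -0.60, past both of the study's thresholds, without HFD replicate 1. Summed CPM of 11 oligodendrocyte markers ran from 8303 to 9530 CPM in the NCD and from 9378 to 10063 CPM in the HFD libraries, and was lowest in NCD replicate 3, where Abca2 was highest.

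Abca1 exports cholesterol and phospholipid to lipid-poor apolipoproteins, the first step in forming a high-density particle. It had 33.2, 30.3 and 27.3 CPM in the NCD and 23.6, 30.5 and 23 CPM in the HFD libraries, so that HFD replicate 2 lay inside the NCD range and the other HFD libraries below it. The log2 fold change was -0.23 ± 0.15 (SE) with a 95% interval from -0.54 to 0.08. Leaving out HFD replicate 2 made it -0.38 (unadjusted p 0.0359 by edgeR's quasi-likelihood test). Abcg1, which passes sterol on to particles already formed, had 61.1, 58.9 and 53.1 CPM against 56.4, 58.6 and 48.4 CPM, a log2 fold change of -0.08 ± 0.12 (SE). Abcg4, its relative in neurons and astrocytes, had 29.5, 28.5 and 33.3 CPM against 34.8, 26.2 and 18.3 CPM. HFD replicate 1 was the highest of the 6 libraries for Abcg4 and HFD replicate 3 the lowest, and the log2 fold change of -0.20 became -0.44, with an unadjusted p of 0.0227 by edgeR's quasi-likelihood test, without HFD replicate 1. Abca3, the phospholipid transporter of lamellar bodies in the lung, had 26.2, 22.5 and 23.7 CPM against 22, 25.1 and 14.2 CPM, again low in HFD replicate 3. Abca7, a lipid transporter linked to phagocytosis, had 6.42, 7.23 and 6.53 CPM against 9.93, 5.57 and 4.67 CPM. Without HFD replicate 3 the log2 fold change of Abca3 was -0.03 and that of Abcg4 -0.004, that of Abca7 turned from -0.01 to 0.18, and the median of the 6 genes was -0.02.

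Liver X receptors (LXR) raise Abca1 and Abcg1 when oxysterols accumulate. The start regions of Abca1 and of Abca2, the gene of this group furthest below 0, are printed here. Binding sites of LXR were not searched for in them, so the marked letters do not bear on LXR. Both are 300-base windows around the transcription start from RefSeq, GRCm38.p6, written 5′ to 3′ on the gene's strand. Capitals mark matches on either strand to the GC box (GGGCGG), the CCAAT box, the TATA box (TATAAA) and the E-box (CACGTG).

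Abca1, chr4:53159846-53160145, minus strand: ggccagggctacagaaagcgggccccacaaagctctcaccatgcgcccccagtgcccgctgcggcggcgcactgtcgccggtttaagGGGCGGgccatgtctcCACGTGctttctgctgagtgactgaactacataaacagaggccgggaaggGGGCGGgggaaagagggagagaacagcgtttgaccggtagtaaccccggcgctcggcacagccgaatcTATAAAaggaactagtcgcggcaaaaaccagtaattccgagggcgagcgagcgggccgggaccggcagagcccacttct
Abca2, chr2:25428349-25428648, plus strand: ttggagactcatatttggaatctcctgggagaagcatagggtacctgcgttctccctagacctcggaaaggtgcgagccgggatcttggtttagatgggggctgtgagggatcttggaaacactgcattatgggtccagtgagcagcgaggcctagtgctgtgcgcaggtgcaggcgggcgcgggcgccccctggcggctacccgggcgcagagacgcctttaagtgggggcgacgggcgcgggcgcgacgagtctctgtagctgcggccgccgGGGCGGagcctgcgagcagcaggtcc

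The Abca1 window held 2 GC boxes, 1 TATA box and 1 E-box, and the Abca2 window 1 GC box. Windows were at hand for 38 of the family's genes, 45 in all, beside 32851 windows of all genes. The GC box stood in 46.7% of the family's windows and in 35.7% of all windows, and the CCAAT box in 35.6% and 37.4%. The TATA box stood in 15.6% and 13.6%, and the E-box, which reads the same on both strands, in 13.3% and 7.15%. None of the 4 motifs holds another, and a match is a description of letters, not of binding.

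Of 22 genes around sterol export, 5 had an unadjusted p under 0.05 by edgeR's quasi-likelihood test. All 5 were on the lower side, against 1.98% of all genes tested on that side. None of the 22 had an adjusted p under 0.05. The list was drawn up with earlier results of these data known, so this share cannot be read as an enrichment. Of the 22 genes, 14 were below 0 and 8 above. Their median log2 fold change was -0.03, beside -0.0025 for all genes tested. Scd1, the stearoyl-CoA desaturase that makes monounsaturated fatty acids, had 92.6, 108 and 82 CPM in the NCD and 72.6, 71 and 65.9 CPM in the HFD libraries, with every HFD library below every NCD library. The log2 fold change of Scd1 was -0.43 ± 0.12 (SE), with an unadjusted p of 0.00205 and an adjusted p of 0.979 by edgeR's quasi-likelihood test, and -0.39 without HFD replicate 3. Srebf1, the transcription factor of fatty acid synthesis that LXR induces, had 36.8, 42.3 and 38.9 CPM against 35, 32.5 and 28 CPM, also without overlap. For Srebf1 the log2 fold change was -0.31 ± 0.13 (SE) and -0.22 without HFD replicate 3, and its unadjusted p of 0.0324 by edgeR's quasi-likelihood test became 0.0889 there, 0.0633 without HFD replicate 2 and 0.124 without NCD replicate 2. Cyp46a1, which turns cholesterol into the oxysterol that leaves the brain, had 88, 79.2 and 111 CPM against 80.5, 81.4 and 66.8 CPM. The groups overlapped, with a log2 fold change of -0.28 and an unadjusted p of 0.0476 by edgeR's quasi-likelihood test, which stayed under 0.05 only without NCD replicate 2 when libraries were left out in turn. The change was -0.13 without NCD replicate 3, with an unadjusted p of 0.31. Apoa1, the apolipoprotein that accepts lipid from Abca1, had 3.33, 8.2 and 2.53 CPM against 2.3, 1.75 and 2.89 CPM, and its groups overlapped. Fitted by edgeR's quasi-likelihood test, Apoa1 had a log2 fold change of -1.03 (unadjusted p 0.03), which shrank to -0.35 (unadjusted p 0.436) once NCD replicate 2, its highest library, was left out. Leaving out HFD replicate 1 or HFD replicate 2 also took that p past 0.05, to 0.0534 and 0.105. Apoa1 is also a liver transcript and is itself on the list of liver markers. Of the 7 tested liver markers, 5, Apoa1 among them, were on the lower side at an unadjusted p under 0.05 by edgeR's quasi-likelihood test. The part of liver transcripts in the Apoa1 counts was not tested. Mylip of the list around sterol export had 11.5, 11.9 and 9.38 CPM against 12.7, 13.7 and 14 CPM. Every HFD library was above every NCD library, with a log2 fold change of 0.30. The unadjusted p of Mylip was 0.108 by edgeR's quasi-likelihood test. The receptors themselves, Nr1h2 and Nr1h3, and Apoe, the main lipoprotein of the brain, had log2 fold changes of 0.02, 0.19 and -0.04.

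The efflux pumps of the blood-brain barrier showed no common direction, with 4 of 6 below 0 and a median log2 fold change of -0.03. Abcb1a, the P-glycoprotein of brain endothelium, had 24.7, 32.6 and 24 CPM in the NCD and 35.8, 23.6 and 18.3 CPM in the HFD libraries. Its highest and lowest libraries were both HFD, and the log2 fold change of -0.07 ± 0.20 (SE) became 0.12 without HFD replicate 3. Abcb1b had 2.35, 1.29 and 3.79 CPM against 2.16, 3.5 and 1.65 CPM. Abcg2, the breast cancer resistance protein, had 16, 12.8 and 15.7 CPM against 15.8, 15.2 and 15.4 CPM, and the 3 HFD libraries lay within the NCD range. The log2 fold change of Abcg2 was 0.06, with a 95% interval from -0.29 to 0.40. Abcc4, which exports cyclic nucleotides and prostaglandins, had 4.94, 5.07 and 6.22 CPM against 6.91, 6.88 and 4.67 CPM. Abcc5, another exporter of cyclic nucleotides and anions, had 65.8, 66.7 and 85.4 CPM against 79.5, 73.1 and 58.6 CPM. For both of these genes HFD replicate 3 was the lowest of the 6 libraries, while the remaining HFD values lay above the lowest NCD value.

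Of 12 endothelial markers 9 had a log2 fold change above 0, with a median of 0.17, none at an unadjusted p under 0.05, and summed CPM of 169, 146 and 170 in the NCD and 193, 185 and 153 in the HFD libraries. Without HFD replicate 3 their median was 0.28, and Pecam1 (0.62, unadjusted p 0.0102) and Flt1 (0.27, unadjusted p 0.0469) passed 0.05 by edgeR's quasi-likelihood test. In bulk tissue fewer cells of a type and less RNA per cell cannot be told apart. Among 10 tested solute carriers and drug sensors of the barrier, Mfsd2a, the lysophospholipid carrier of brain endothelium, had 24.3, 26.6 and 24.4 CPM in the NCD and 18.6, 20 and 15.8 CPM in the HFD libraries. Every HFD library was below every NCD library, with a log2 fold change of -0.47 ± 0.15 (SE), an unadjusted p of 0.00517 and an adjusted p of 0.979 by edgeR's quasi-likelihood test. Without HFD replicate 3 it was -0.38. Nfe2l2, the oxidative stress factor that induces several Abcc genes, had 19.5, 18.7 and 18.4 CPM against 22, 22.2 and 28 CPM, with all HFD libraries above the NCD libraries. Its log2 fold change of 0.35 had an unadjusted p of 0.0302 by edgeR's quasi-likelihood test. Without HFD replicate 3 the change was 0.23 and that p 0.129, and leaving out NCD replicate 1, 2 or 3 gave 0.0506, 0.0688 and 0.0626. The xenobiotic receptors Nr1i2 and Nr1i3, which drive efflux pumps in liver, were under the filter.

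**Figure D3:**
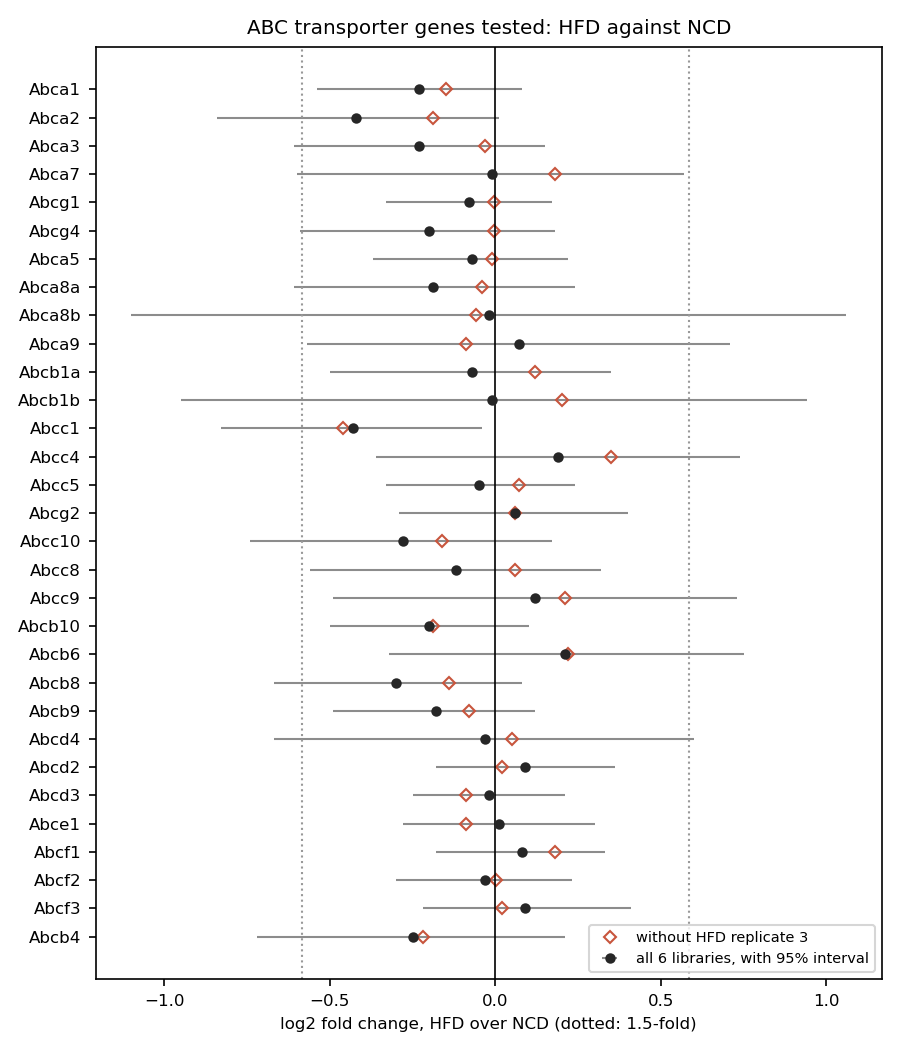
Log2 fold change, HFD over NCD, of 31 tested genes (black, with the 95% interval) and the same without HFD replicate 3 (red diamonds); dotted lines mark 1.5-fold. Abcc1 is the 1 gene drawn whose interval leaves out 0, from -0.83 to -0.04, and most red diamonds lie to the right of the black points.

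The peroxisomal half-transporters carry fatty acyl-CoA into the organelle. Abcd3 had 79, 82.7 and 88.4 CPM in the NCD and 76.7, 80.2 and 89.5 CPM in the HFD libraries, ranges that almost coincide, and its log2 fold change was -0.02 with a 95% interval from -0.25 to 0.21. Abcd2 had 39.7, 33.9 and 34.9 CPM against 35.8, 37.4 and 42.3 CPM, a log2 fold change of 0.09 ± 0.13 (SE). For both of these genes HFD replicate 3 was the highest of the 6 libraries. Of 12 genes of peroxisomal import and beta-oxidation, 6 were above 0 and 6 below, and none had an unadjusted p under 0.05.

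Among the mitochondrial members, Abcb8 had 15.9, 19.6 and 18.5 CPM in the NCD and 16, 16.7 and 11.3 CPM in the HFD libraries. HFD replicate 3 was low and the other HFD values lay inside the NCD range, with a log2 fold change of -0.30 ± 0.18 (SE), or -0.14 without HFD replicate 3. Abcb10, which takes part in heme synthesis, had 34.2, 26.9 and 26.8 CPM against 23.5, 27.6 and 25 CPM, a log2 fold change of -0.20 ± 0.14 (SE). Abcb6, a porphyrin transporter, had the highest fitted change of the 33 tested members, at 0.21 ± 0.25 (SE). It had 5.06, 4.53 and 6.64 CPM against 6.19, 6.45 and 6.19 CPM, and the HFD libraries lay within the NCD range. An unnamed model, Gm29253, overlaps the exons of Abcb6 on the same strand, and its reads could fall to either. Of 14 genes of mitochondrial heme and iron-sulphur synthesis 8 were above 0 and 6 below, none at an unadjusted p under 0.05.

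Lysosomal Abcb9, a peptide transporter, had 27.3, 25.6 and 28.8 CPM in the NCD and 26.9, 24.8 and 20.2 CPM in the HFD libraries, again lowest in HFD replicate 3. Abcd4, which takes part in the release of cobalamin from lysosomes, had 3.95, 5.5 and 3.58 CPM against 4.17, 4.81 and 3.71 CPM, inside the NCD range. None of 6 genes listed with Abcd4 for cobalamin had an unadjusted p under 0.05. The sulfonylurea receptors Abcc8 and Abcc9 are regulatory subunits of potassium channels that close when ATP is high. Abcc8 had 11.5, 11.6 and 14.3 CPM against 14.3, 11.9 and 8.39 CPM, and Abcc9 had 4.2, 4.31 and 4.11 CPM against 5.76, 4.04 and 3.99 CPM. Both overlapped between the groups, as did their pore subunits Kcnj11 and Kcnj8, with log2 fold changes of -0.18 and 0.34.

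The soluble members that act in translation lay within narrow ranges. Abce1, which splits ribosomes for reuse, had 49.9, 49.8 and 39.3 CPM in the NCD and 41.6, 45.1 and 53.2 CPM in the HFD libraries, with a log2 fold change of 0.01 and a 95% interval from -0.28 to 0.30. Abcf1, a factor of translation initiation, had 79.1, 69.3 and 77.2 CPM against 86.2, 84.2 and 67.1 CPM. Abcf2 and Abcf3 ranged from 34 to 39.1 CPM and from 18.8 to 24.2 CPM over the 6 libraries. The groups overlapped for all 4, and their median log2 fold change was 0.04. Rps3, a ribosomal protein of the small subunit, was the 1 gene of 12 tested in ribosome recycling and translation control at an unadjusted p under 0.05, with 420 CPM in HFD replicate 3 and 239 to 300 CPM in the other 5 libraries. Its log2 fold change was 0.34, and 0.15 without HFD replicate 3, where the unadjusted p of 0.0209 by edgeR's quasi-likelihood test became 0.124. That p was 0.0521 without NCD replicate 1 and 0.0905 without NCD replicate 3.

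Abcb4, the phosphatidylcholine carrier of bile, had 10.5, 7.77 and 8.64 CPM in the NCD and 8.64, 6.77 and 7.15 CPM in the HFD libraries, and Abcc10 had 9.26, 8.63 and 9.48 CPM against 8.93, 7.43 and 6.19 CPM. Their log2 fold changes were -0.25 ± 0.22 (SE) and -0.28 ± 0.21 (SE), and the groups overlapped for both. Dlk2 overlaps exons of Abcc10 on the other strand, and the use of strand in counting is not given in the sources used here. Transporters typical of liver, gut, skin or retina were at the edge of detection. Abcc3 had 14, 7 and 7 counts in the NCD and 13, 4 and 5 counts in the HFD libraries, Abca4 had 34 counts in all, Abca13 21, Abcc2 15 and Abcg3 14. Abcc6 had 1, 2 and 0 counts against 4, 2 and 3, which put its HFD libraries above the NCD libraries in CPM, but at or near the level of 3 counts. Abcb11, Abcg5 and Abcg8, which secrete bile salts and sterols, had 8, 2 and 3 counts in all. Tap1, Tap2 and Cftr, ABC genes that the naming rule leaves out, were all tested and overlapped between the groups, with log2 fold changes of 0.19, -0.21 and -0.19.

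**Figure D4:**
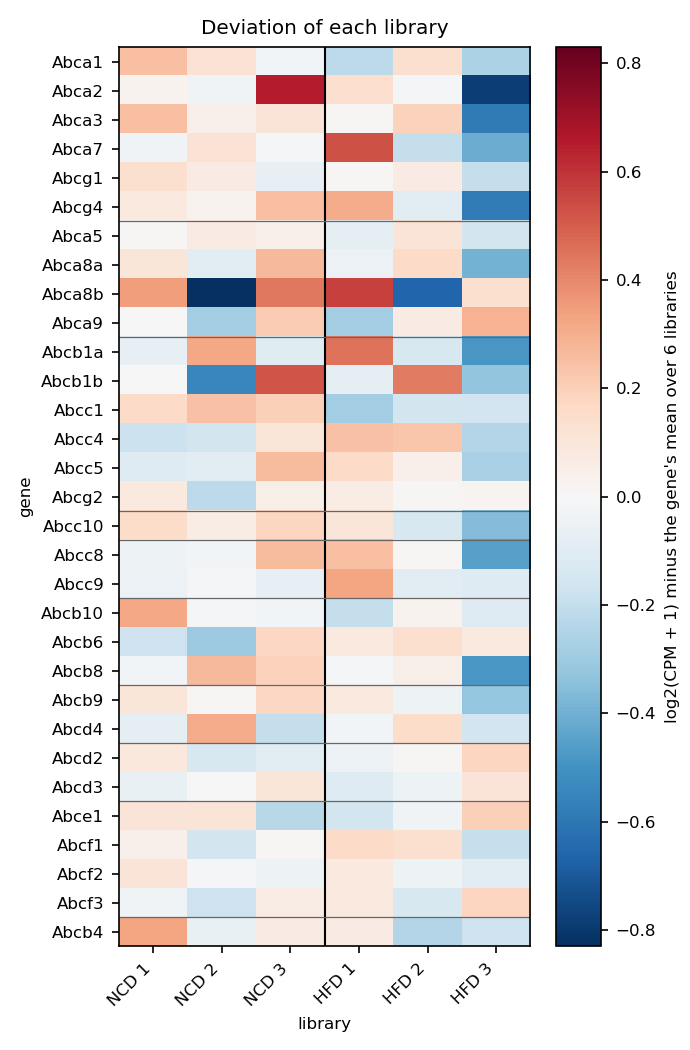
Deviation of each library from the gene's mean over 6 libraries, in log2(CPM + 1), for 31 tested genes in order of role. Red is above the mean and blue below it; HFD replicate 3 is blue for most genes.

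Taken as a family, 24 of the 33 tested genes had a log2 fold change below 0 (72.7%, against 50.6% of all genes tested), with a median of -0.05 beside -0.0025. HFD replicate 3 was the lowest of the 6 libraries for 18 of the 33 members, against 27.1% of all genes tested. The median deviation of the members from their means, on the log2(CPM + 1) scale, was -0.19 in that library and between -0.01 and 0.08 in the other 5. Without it 18 of 33 were below 0 (54.5%, against 51.2% of all genes), and the median was -0.004. The deficit differed between roles: summed CPM of the lipid exporters was 216 in HFD replicate 3 and 329 to 436 in the other libraries. Abca2 alone gave 107 CPM of that sum in HFD replicate 3 and 181 to 292 CPM in the other libraries. Every lipid exporter was lowest in HFD replicate 3, while the peroxisomal Abcd2 and Abcd3 were at their highest there, at 42.3 and 89.5 CPM.

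Transcript length and GC content were set beside the deviations in HFD replicate 3. The longest annotated coding transcript of the tested members had a median of 5266 bases against 3241 for all genes tested, and 27 of 33 members were longer than that median. Over the 12735 tested genes with a transcript, split into 4 equal bins, the median deviation in HFD replicate 3 went from 0.11 in the bin of the shortest to -0.10 in that of the longest transcripts, and from 0.11 in the bin poorest in GC to -0.12 in the richest. Genes above the median in both measures, 2512 in all, had a median deviation of -0.22 there. HFD replicate 3 was the lowest library for 12 of the 18 members above the median GC content and for 6 of the 15 below it. By length it was lowest for 15 of the 27 members above the median and 3 of the 6 below it. Such counts were not made for all tested genes above and below each median. The median deviation of the members there was -0.24 above and -0.15 below the median GC content, and -0.22 above and -0.12 below the median length. The bin of the shortest transcripts held 0 members and the next bin 6, and all genes in that next bin were at 0.01 in HFD replicate 3. The bin poorest in GC held 10 members and the next bin 5, with all genes at 0.11 and 0.02. HFD replicate 3 also held 1276 CPM of pituitary markers, against 4.75 to 13.6 CPM in the other 5. The part of either in the family's values was not tested.

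**Figure D5:**
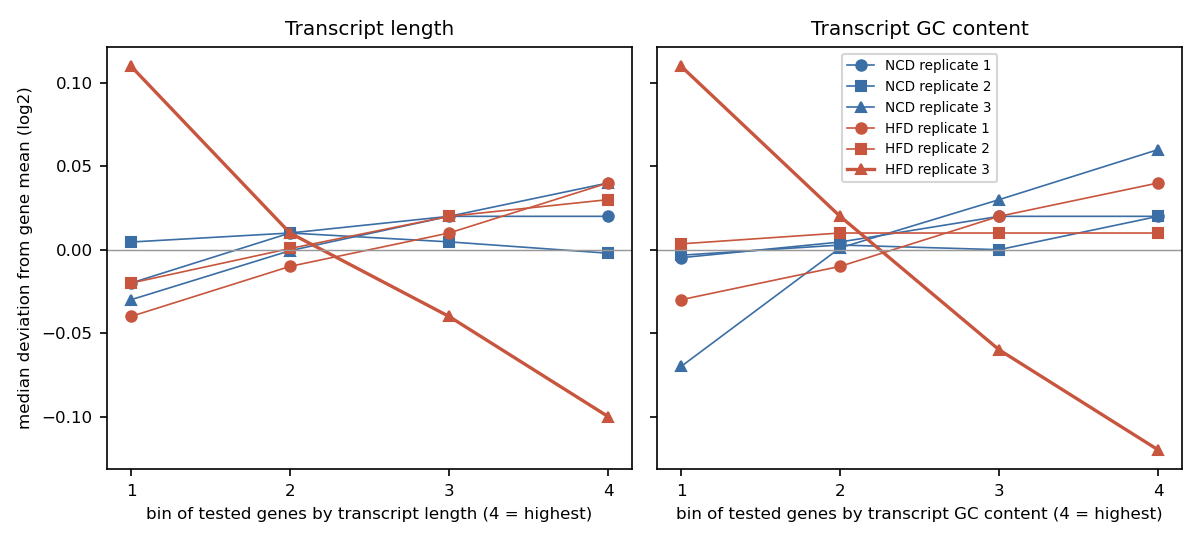
Median deviation from the gene's mean (log2(CPM + 1)) in 4 equal bins of transcript length, left, and of transcript GC content, right, for all tested genes, with 1 line per library. HFD replicate 3, the thick red line, runs from 0.11 to -0.10 with length and from 0.11 to -0.12 with GC content, and the other 5 libraries stay between -0.07 and 0.06.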

How the data were processed

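QuantSeq 3′ libraries of 6 forebrain samples were sequenced by the authors, trimmed, aligned to mm10 with Bowtie2 and counted with bedtools over unique and multiple alignments, and raw read counts per gene were deposited. The annotation and the use of strand are not given in the sources used here. Library totals ran from 6842785 to 9689372 counts, and a count of 3, which covers counting error only, was 0.316 to 0.432 CPM. CPM here are counts over the TMM effective library size, and shares of counts are over the total.

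Genes passing filterByExpr (minimum count 10, minimum total 15) were scaled by TMM and tested with the quasi-likelihood test of edgeR 4.0.16 in R 4.3.3, all 6 libraries, no covariate, with Benjamini-Hochberg adjustment over 13771 genes. The 95% intervals use the test's own t quantile. Members under the filter were fitted without it. DESeq2 1.42.0, limma 3.58.1 with quantile normalization, other scalings and filters and leaving out each library were alternatives. The procedure was tested on simulated data. Members, roles and gene lists were chosen with earlier results of these data known. Named were, per role, the 3 members with the highest mean CPM, members with an unadjusted p under 0.05, a fold of 1.5 or separated groups, members under the filter with 10 or more counts, and listed genes with an unadjusted p under 0.05; others were named after their values were seen. Positions and transcripts are from GENCODE vM21 and promoters from RefSeq GRCm38.p6. A few tested genes count in the family's and the lists' totals and are not reported singly here.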

Additional observations from a re-analysis of the deposited data

How the results depend on the processing

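The number of members past a fold of 1.5 and an unadjusted p of 0.05 was 0 and ranged from 0 to 2 when 1 library was left out: Abca6 and Abca2 passed without HFD replicate 1 (2) and Abca6 without HFD replicate 3 (1), and 1 member passed without NCD replicate 3. Without a filter on low counts it was 1, Abca6. No setting gave a member with an adjusted p under 0.05. The median of the members ranged from -0.14 without HFD replicate 1 to -0.004 without HFD replicate 3. With library size alone the log2 fold change of Abce1 was -0.02. Leaving out single libraries turned the sign of Abca7 (-0.39 to 0.18), Abcb1a (-0.37 to 0.12), Abcg2 (-0.04 to 0.12), Abcc5 (-0.14 to 0.09), Abcd3 (-0.09 to 0.02), Abce1 (-0.10 to 0.09), Abcc8 (-0.29 to 0.06) and Abcc9 (-0.07 to 0.21). Replicate numbers are shared between the diets, but same-numbered libraries did not deviate together (correlations over genes of -0.0295, 0.0515 and -0.0574). With the replicate block no member was past the fold and p, 1 had an unadjusted p under 0.05 and the median was -0.06. With 3 libraries a group, changes under 1.5-fold in genes with few counts, such as Abcb1b and Abca8b, were not resolved at this depth.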

Other observations

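Among the marker genes, Kcnj13, a potassium channel of the choroid plexus, had 4.44, 5.07 and 5.16 CPM in the NCD and 6.33, 7.76 and 7.97 CPM in the HFD libraries, with no overlap. The log2 fold change of Kcnj13 was 0.59 ± 0.24 (SE), with an unadjusted p of 0.0271 and an adjusted p of 0.979 by edgeR's quasi-likelihood test. That unadjusted p was 0.0675 without HFD replicate 3, 0.0803 without HFD replicate 2 and 0.0751 without NCD replicate 1, and 8 of 11 choroid plexus markers were above 0. Rgs5, a marker of pericytes, had 19.6, 21.9 and 20 CPM against 23.9, 24.1 and 29.1 CPM, with all HFD libraries above the NCD libraries, a log2 fold change of 0.32 and an unadjusted p of 0.0365, or 0.126 without HFD replicate 3, 0.102 without NCD replicate 1 and 0.0741 without NCD replicate 3, by edgeR's quasi-likelihood test. Cldn5, the tight junction protein of brain endothelium, had 8.27, 7.98 and 7.27 CPM against 10.2, 9.62 and 9.35 CPM, likewise apart, with an unadjusted p of 0.137 by the same edgeR test. Of the 11 pericyte and mural markers, Rgs5 among them, 7 were below 0 and 4 above, with a median log2 fold change of -0.01. Kcnj13 and Cldn5 mark the cells that hold Abcb1a, Abcg2 and Abcc1 at the barriers, and neither they nor Rgs5 had an adjusted p under 0.05. No gene of the lists for astrocytes, microglia, ependyma, neurons or oligodendrocytes had an unadjusted p under 0.05.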
